A study of Mus musculus with 4 samples.

Results

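The 10 genes described here mark neutrophils: the receptor genes Csf3r and Cxcr2, the calprotectin pair S100a8 and S100a9, the granule genes Camp, Ltf, Ngp and Mmp8, the resistin-like gene Retnlg and the cytokine gene Il1b. They were chosen by name, with earlier results of these data known. All 10 of them were found among the 22180 genes of the array, each on 1 row of the deposited table. RNA of whole pancreas was hybridised to 4 Affymetrix arrays, 2 from Ifrd1 null mice and 2 from wild-type mice. Ifrd1 encodes a transcriptional co-regulator, and its loss is the difference between the groups that the labels name. Mice of both groups were 8 weeks old and received cerulein into the peritoneum at 100 µg/kg, 6 times a day on alternate days, up to day 5. Cerulein mimics the gut hormone cholecystokinin, and in excess it injures the acinar cells that secrete digestive enzymes. The stage was chosen to catch proliferation in the injured organ. Strain, sex, litter and the way the null allele was made are not given in the sources used here. Untreated pancreas is not analysed here, so every value compares genotypes within injured tissue.

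Neutrophils are short-lived phagocytes that leave the blood within hours of pancreatic injury and are later cleared. Csf3 drives their production through Csf3r, and chemokines such as Cxcl1, Cxcl2 and Cxcl5 draw them into tissue through Cxcr2. Their granule proteins are largely made in the bone marrow, so mature cells in tissue may hold the proteins with little of the transcripts, while the S100a8 and S100a9 messages are abundant in mature mouse neutrophils.

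On day 5 most of these transcripts gave a weak signal in either genotype, and Retnlg was the gene that stood apart. Levels are the authors' deposited values, read as log2, and differences are Ifrd1 null minus wild type with limma's standard error (SE). Of the 10 genes, 8 lay below the median gene on every array, and Csf3r and Retnlg lay above it on every array. As a guide to the signal of a transcript that pancreas is not known to make, 1105 olfactory receptor genes had a median level of 2.05, and 95% of them had a level of at most 3.84. The same 8 genes had mean levels at or under that value. Signal depends on the probes of each row, so neither comparison is a detection call, and a difference between dim rows is not exact. In bulk tissue, fewer neutrophils and less of a transcript per neutrophil cannot be told apart.

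The order of the mean levels over the 4 arrays was Csf3r at 5.80, Retnlg at 5.66, Cxcr2 at 3.77, S100a9 at 3.59, Il1b at 3.45, Ltf at 3.12, Mmp8 at 3.07, Ngp at 2.99, Camp at 2.79 and S100a8 at 1.97 (log2). This order is over rows with different probes and does not rank transcript amounts. The values of Cxcr2, S100a9 and Il1b overlapped over the 4 arrays, as did those of Ltf, Mmp8 and Ngp, while S100a8 lay below every other gene on every array. S100a8 was so dim that on wild type 2 only 4.75% of genes ranked at or below it, and on Ifrd1 null 1 it was 8.73%.

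**Figure D1:**
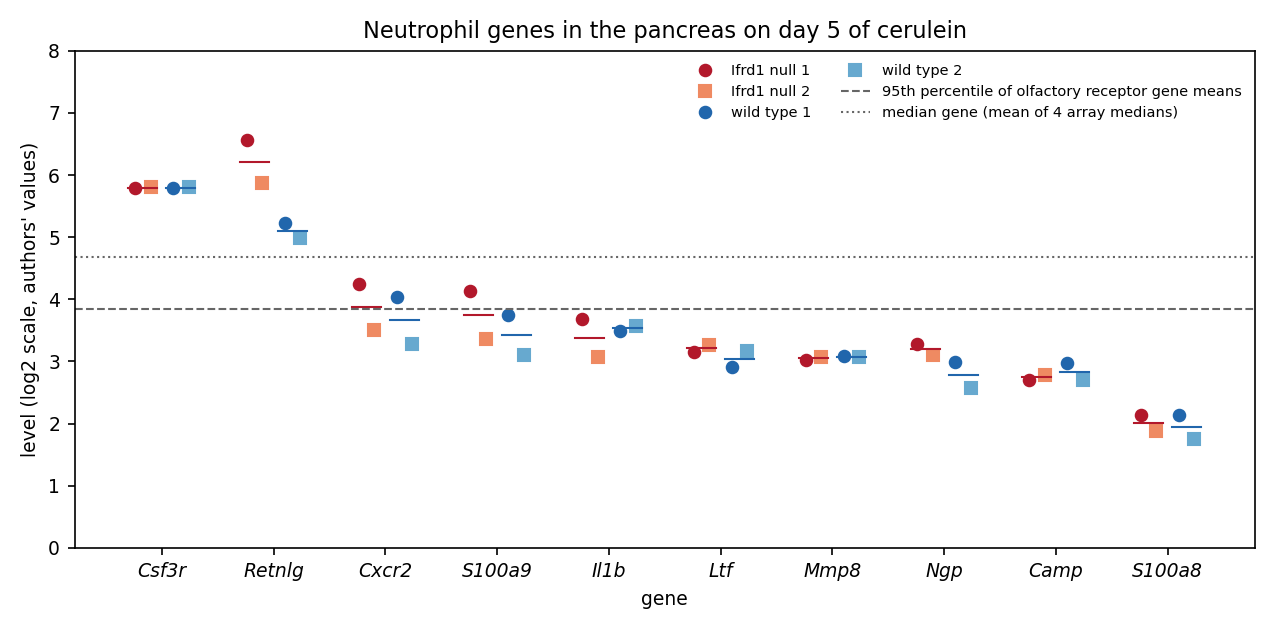
Level of each of the 10 genes on the 4 arrays (log2 scale, authors' values), ordered by mean, with short lines for the mean of each genotype. Csf3r and Retnlg lie above the dotted line of the median gene on every array, and the other 8 lie below it, with means under the dashed line at 3.84.

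Across the series, limma passed 1 of 22180 genes at adjusted p under 0.05, which is 0.00451% (Uty, a Y-linked gene), and 0 of the 10 neutrophil genes passed. At unadjusted p under 0.05 limma gave 1 of the 10, Retnlg, against 6.91% of all genes in either direction and 3.27% on the higher side. On the lower side it gave 0 of the 10, against 3.63% of all genes. The targeted gene was low where its label says, with Ifrd1 at 6.99 and 7.09 on the null arrays and 9.04 and 9.07 on the wild-type arrays. Xist was 6.82 higher on the null arrays, and 3 measured Y-linked genes had differences of -4.10 to -2.97, so genotype and sex as read from these genes cannot be told apart in any value below. Since each genotype has 2 arrays, the smallest two-sided p that an exact permutation test could give is 0.333, and none is given. The labels call the samples biological replicates.

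In the comparison of Ifrd1 null with wild type, 7 of the 10 genes were higher and 3 lower, with a median difference of 0.12, a 1.09-fold higher level, against a median of -0.01 over all genes, of which 47.2% were higher. The groups did not overlap for 2 of the 10, Retnlg and Ngp, both higher in the null, where 16.1% of all genes had that pattern. For 0 of the 10 were both null arrays below both wild-type arrays, against 19.7% of all genes. In either direction 2 of the 10 did not overlap, beside 35.8% of all genes. The count of 2 in 10 on the higher side is close to its background. Leaving out Retnlg, the other 9 differences ran from -0.15 to 0.42, with a median of 0.07.

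Array by array, the answer depended on which mice were set against each other. Ifrd1 null 1 was higher than wild type 1 for 8 of the 10 genes (median difference 0.21) and higher than wild type 2 for 7 (0.25). Of all genes, 46.1% and 44.3% were higher in these comparisons. Ifrd1 null 2 was higher than wild type 1 for 4 of the 10 (median difference -0.10) and higher than wild type 2 for 8 (0.12), beside 48.2% and 46.9% of all genes. Without Ifrd1 null 1 the median of the 10 differences was -0.03 with 4 genes higher, and without wild type 2 it was -0.02 with 4 higher. The sign of the median thus rested on those 2 arrays. In at least 1 genotype the gap between its mice was wider than the gap between genotypes for 8 of the 10 genes. The exceptions were Retnlg and Ngp, and for Ngp the wild-type gap of 0.417 nearly equalled the difference of 0.419. Taken singly, the wild-type gap was wider for 6 of the 10 and the null gap for 6. The share of all genes with such gaps was not counted.

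**Figure D2:**
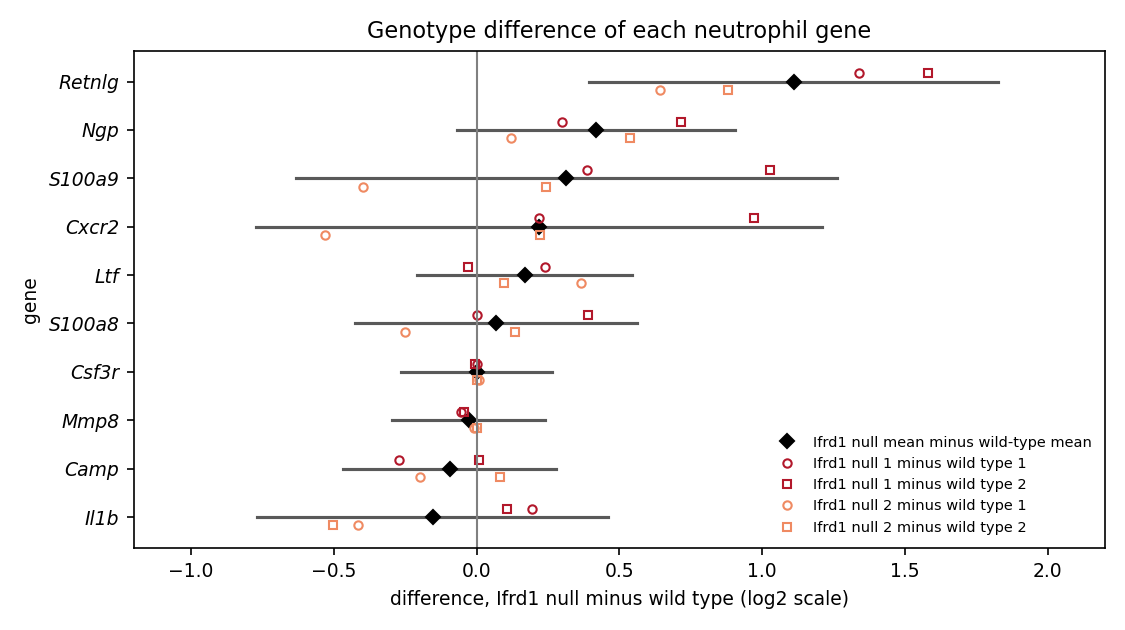
Difference of each gene, Ifrd1 null minus wild type (log2 scale), with limma's 95% interval as a bar (not adjusted for the number of genes) and the 4 differences between single arrays as open symbols. The 4 symbols lie right of 0 for Retnlg and Ngp, and the interval of Retnlg, 0.40 to 1.83, is the only one that leaves out 0.

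Among the receptors, Csf3r, which binds the growth factor of neutrophil production, was at 5.79 and 5.80 on the null arrays and at 5.79 and 5.80 on the wild-type arrays. All 4 values lay within 0.0084, a range matched or undercut by 58 of 22180 genes (0.261%), where the median gene ranged over 0.35. The difference was 0.0012 ± 0.10 (SE), with an interval from -0.26 to 0.27 (limma, 95%). That interval is set mostly by the spread limma borrows from all genes, not by the spread of Csf3r itself. On Ifrd1 null 2 and wild type 2 the deposited values of Csf3r were identical to the last digit, and 14.1% of genes shared a value between arrays in this way.

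Cxcr2, the receptor for the neutrophil-attracting chemokines, was at 4.25 and 3.51 on the null arrays and at 4.04 and 3.28 on the wild-type arrays. Each genotype held a higher and a lower array, and the groups overlapped. The difference of 0.22 ± 0.37 (SE; limma 95% interval -0.77 to 1.21) was smaller than the gaps within the genotypes, which were 0.75 in the null and 0.75 in wild type.

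The calprotectin genes encode the partner subunits of a calcium- and zinc-binding protein that makes up much of the neutrophil cytosol. S100a9 was at 4.14 and 3.35 on the null arrays and at 3.75 and 3.11 on the wild-type arrays. S100a8 was at 2.14 and 1.88 on the null arrays and at 2.13 and 1.74 on the wild-type arrays. Both genes were higher on Ifrd1 null 1 and wild type 1 than on the other array of the same genotype, as was Cxcr2, and for each the groups overlapped. The differences were 0.31 ± 0.35 for S100a9 (limma 95% interval -0.63 to 1.26) and 0.07 ± 0.18 for S100a8 (-0.42 to 0.56).

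Within the genotypes, 5 of the 10 genes (S100a8, S100a9, Cxcr2, Ngp and Retnlg) were higher on the array numbered 1 in both, as were 19.8% of all genes, and 2 (Csf3r and Ltf) were lower on it in both, as were 25.2%. A shared number is not stated to mark a shared litter or day. For S100a9 the step between arrays was 0.78 in the null and 0.64 in wild type. For Il1b, Camp and Mmp8 the steps had opposite signs in the null and in wild type.

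**Figure D3:**
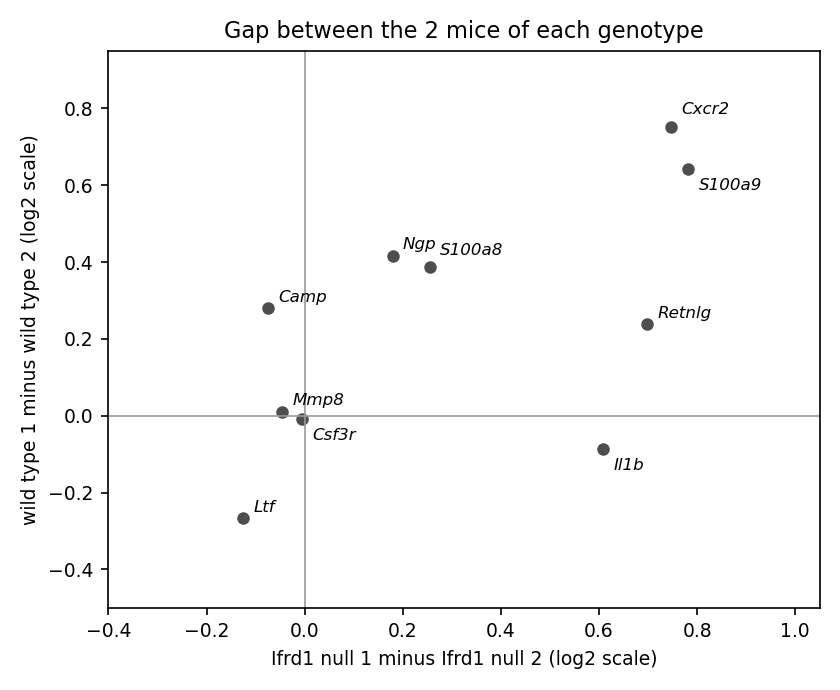
Gap between the mice of each genotype for the 10 genes, with Ifrd1 null 1 minus Ifrd1 null 2 on the horizontal axis and wild type 1 minus wild type 2 on the vertical axis (log2 scale). Cxcr2 and S100a9 lie farthest into the upper right, with gaps of 0.64 to 0.78 in both genotypes, while Il1b has a gap of 0.61 in the null and -0.09 in wild type.

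The 250 bases before the annotated start of S100a8, S100a9 and Cxcr2, which ranked the 4 arrays in the same order, are shown with those of Retnlg, the gene that stood apart. They are from RefSeq on GRCm38.p6, at chr3:90668821-90669070 (plus strand), chr3:90695722-90695971 (minus strand), chr1:74153744-74153993 (plus strand) and chr16:48872358-48872607 (plus strand), and are read 5′ to 3′. Capitals mark matches on either strand to TATAAA, to TTNNGNAA, a relaxed form of the site of C/EBP factors, which drive granulocyte genes, and to GAGGAAG, a form of the site of PU.1, a factor of myeloid cells. No 2 matches overlapped.
S100a8: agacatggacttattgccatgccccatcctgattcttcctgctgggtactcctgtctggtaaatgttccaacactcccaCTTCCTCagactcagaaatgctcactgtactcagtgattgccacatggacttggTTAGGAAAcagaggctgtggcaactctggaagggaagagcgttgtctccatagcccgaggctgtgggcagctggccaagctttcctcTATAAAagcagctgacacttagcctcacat
S100a9: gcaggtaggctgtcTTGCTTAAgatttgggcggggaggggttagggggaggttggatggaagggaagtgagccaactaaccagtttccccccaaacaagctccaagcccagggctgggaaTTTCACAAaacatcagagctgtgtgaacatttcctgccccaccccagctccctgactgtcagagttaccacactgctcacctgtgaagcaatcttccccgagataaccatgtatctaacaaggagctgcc
Cxcr2: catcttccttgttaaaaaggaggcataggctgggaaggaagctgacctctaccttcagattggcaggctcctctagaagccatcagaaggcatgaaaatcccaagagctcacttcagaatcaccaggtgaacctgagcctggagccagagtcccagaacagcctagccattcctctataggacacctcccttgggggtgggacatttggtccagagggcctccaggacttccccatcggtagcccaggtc
Retnlg: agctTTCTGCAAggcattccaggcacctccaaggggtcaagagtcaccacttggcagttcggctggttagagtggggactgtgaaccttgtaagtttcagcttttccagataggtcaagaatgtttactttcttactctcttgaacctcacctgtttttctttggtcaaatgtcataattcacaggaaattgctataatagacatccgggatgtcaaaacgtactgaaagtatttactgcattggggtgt
TTNNGNAA was found before 7 of the 10 genes and in 36.8% of 32851 such windows, GAGGAAG before 3 of 10 (S100a8, Csf3r and Mmp8) and in 10.6%, and TATAAA before 2 of 10 (S100a8 and Il1b) and in 12.4%. In S100a8 the match to TATAAA began 30 bases before the start, and in Il1b 31. The windows of Cxcr2 and Camp held none of the 3 letter patterns. A match is a string of letters and not a shown site.

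The granule genes among the 10, Camp, Ltf, Ngp and Mmp8, were dim on all 4 arrays. Not all granule genes were, as Lcn2 and Prtn3, outside the 10, lay above the median gene on every array. Ngp, a cathelicidin-related granule protein of mouse neutrophils, was at 3.29 and 3.11 on the null arrays and at 2.99 and 2.57 on the wild-type arrays. Both null values lay above both wild-type values, by 0.12 at the nearest pair. The difference was 0.42 ± 0.18 (SE), a 1.34-fold higher level, with a limma adjusted p of 0.727 and an interval from -0.07 to 0.91. As all 4 values lie below the median gene, its size is not exact.

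The remaining granule genes of the 10 showed overlapping groups. Ltf, which encodes the iron-binding lactoferrin of secondary granules and of exocrine glands, was at 3.15 and 3.27 on the null arrays and at 2.91 and 3.17 on the wild-type arrays (difference 0.17 ± 0.14, SE). Camp, the mouse cathelicidin, was at 2.70 and 2.78 on the null arrays and at 2.98 and 2.70 on the wild-type arrays (-0.09 ± 0.14). Mmp8, the neutrophil collagenase, was at 3.03 and 3.08 on the null arrays and at 3.08 and 3.07 on the wild-type arrays (-0.03 ± 0.10). The limma 95% intervals were -0.21 to 0.54 for Ltf, -0.47 to 0.28 for Camp and -0.29 to 0.24 for Mmp8, so equal levels are not shown for any of the 3.

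Il1b, an inflammatory cytokine made by neutrophils as well as by monocytes and macrophages, was at 3.68 and 3.07 on the null arrays and at 3.49 and 3.58 on the wild-type arrays. The null arrays lay on either side of the wild-type pair. The difference was -0.15 ± 0.23 (SE; limma 95% interval -0.77 to 0.46), and without Ifrd1 null 2 it was 0.15.

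Retnlg, a resistin-like secreted protein found in mouse neutrophils and bone marrow, was at 6.56 and 5.87 on the null arrays and at 5.22 and 4.98 on the wild-type arrays. Both null arrays were higher than both wild-type arrays, by 0.64 at the nearest pair and 1.58 at the farthest. The difference was 1.11 ± 0.27 (SE), a 2.16-fold higher level, with a limma unadjusted p of 0.0116 and an adjusted p of 0.721 over all genes, so it did not pass. By size it was rank 7 among the rises of 22180 genes, a list headed by Xist at 6.82 and the immunoglobulin gene Ighg3 at 3.96 (both chosen after their values were seen). The difference of Retnlg was 0.76 without Ifrd1 null 1 and 1.46 without Ifrd1 null 2. It was 1.23 without wild type 1 and 0.99 without wild type 2.

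The relatives of Retnlg did not have the same pattern. Retnla, its neighbour on chromosome 16 and a product of alternatively activated macrophages, was at 5.80 and 4.74 on the null arrays and at 4.75 and 4.75 on the wild-type arrays. Retn, the resistin gene of mouse fat cells, was at 7.44 and 6.08 on the null arrays and at 6.16 and 6.63 on the wild-type arrays. Retnlb, a product of intestinal goblet cells, was at 2.96 and 3.35 on the null arrays and at 3.08 and 2.70 on the wild-type arrays. For these 3, chosen after the values of Retnlg were seen, Ifrd1 null 1 held the highest value of Retnla and Retn, and Ifrd1 null 2 did not exceed both wild-type arrays for either. Chil3, a chitinase-like protein of neutrophil precursors and macrophages, was set beside Retnlg after its values were seen, and was at 5.80 and 5.02 on the null arrays and at 4.67 and 4.39 on the wild-type arrays. It had a difference of 0.88 ± 0.30 (SE; limma unadjusted p = 0.0377, adjusted p = 0.721).

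**Figure D4:**
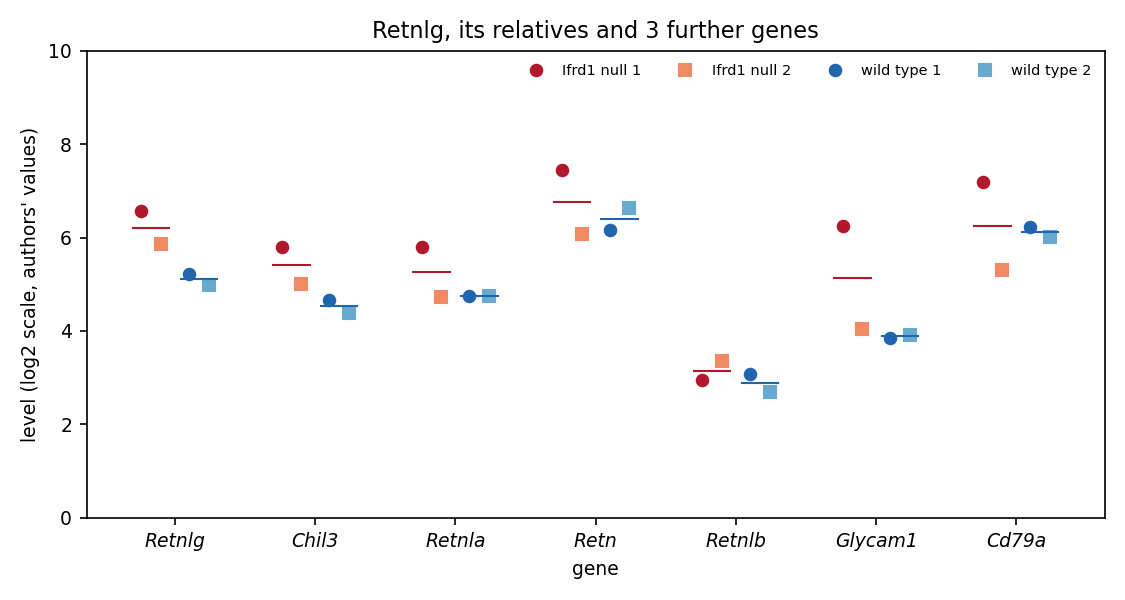
Level of Retnlg, Chil3, the resistin relatives Retnla, Retn and Retnlb, and of Glycam1 and Cd79a on the 4 arrays (log2 scale, authors' values), with lines for the mean of each genotype. Both null arrays lie above both wild-type arrays for Retnlg and Chil3, by at least 0.64 and 0.34, and for Glycam1, by 0.11 at the nearest pair, whereas for Retnla, Retn and Cd79a only Ifrd1 null 1 lies above the wild-type arrays.

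By median, markers of B and plasma cells and of T and NK cells stood higher on Ifrd1 null 1, the array with the highest Retnlg, than on Ifrd1 null 2. All 11 measured B and plasma cell markers were above the wild-type mean on Ifrd1 null 1 (median 0.70) and 1 of 11 was on Ifrd1 null 2 (median -0.32). Their mean level was 5.62 and 4.41 on the null arrays and 4.87 and 4.77 on the wild-type arrays. Cd79a, a chain of the B cell receptor, was at 7.19 and 5.31 on the null arrays and at 6.23 and 6.01 on the wild-type arrays. Glycam1, an L-selectin ligand of the vessels of lymph nodes, was at 6.24 and 4.03 on the null arrays and at 3.85 and 3.92 on the wild-type arrays. Of 18 measured markers of T and NK cells, 18 had a higher mean in the null (median difference 0.30), beside 47.2% of all genes. Their median was 0.40 above the wild-type mean on Ifrd1 null 1 and 0.14 on Ifrd1 null 2. By mean level 15 of the 18 lay below the median gene, and 13 lay above 3.84, the olfactory receptor guide. By limma 0 genes of the B and plasma cell or T and NK cell lists passed adjusted p under 0.05, against 0.00451% of all genes. The part of these cells in the Retnlg values was not tested.

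Other genes of the neutrophil ranged from dim to bright, and none passed the adjusted threshold by limma. Of 47 listed, 43 were measured, of which 26 had a mean level above 3.84, the olfactory receptor guide, and 23 lay below the median gene. Of the 43, 28 were higher and 15 were lower in the null, with a median difference of 0.11, beside -0.01 over all genes. By limma 0 of the 43 passed adjusted p under 0.05, against 0.00451% of all genes. Unadjusted p was under 0.05 for 2, both higher, against 3.27% of all genes on that side. They were Chil3 and Mrgpra2a (0.47 ± 0.17, SE), a receptor gene of mouse neutrophils. Mrgpra2a was dim, at 2.49 and 2.77 on the null arrays and at 2.32 and 1.99 on the wild-type arrays, all under 3.84. Groups did not overlap for 9 of the 43 on the higher side, against 16.1% of all genes, and for 3 on the lower side, against 19.7%. Those on the lower side were C5ar1, Ceacam10 and Stfa3, of which C5ar1 alone lay above the median gene on every array. Ly6g, the surface antigen used to sort mouse neutrophils, was at 3.11 and 3.28 on the null arrays and at 4.55 and 3.16 on the wild-type arrays. Wild type 1 held its highest value, and all 4 values lay below the median gene. Cd177 and Il1r2 also had their highest value on wild type 1, at 4.47 and 4.29, and lay below the median gene on every array. The list held 4 enzymes of primary granules, of which Prtn3 lay above the median gene on every array and the other 3 below it. Mpo, myeloperoxidase, was at 3.82 and 3.82 on the null arrays and at 3.81 and 3.33 on the wild-type arrays, and Elane, neutrophil elastase, was at 4.10 and 3.84 on the null arrays and at 3.71 and 4.01 on the wild-type arrays. Prtn3, proteinase 3, was at 5.18 and 4.98 on the null arrays and at 4.86 and 4.90 on the wild-type arrays, and Ctsg, cathepsin G, was at 4.08 and 3.92 on the null arrays and at 3.59 and 3.76 on the wild-type arrays. Both null arrays lay above both wild-type arrays for Mpo, Prtn3 and Ctsg, by as little as 0.0047 for Mpo, and Elane overlapped. These 4 enzymes were chosen after their values were seen.

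The bright genes of that list are made by other cells as well. Lyz2, the lysozyme of macrophages and neutrophils, was at 10.46 and 9.68 on the null arrays and at 10.30 and 10.55 on the wild-type arrays. Lcn2, a siderophore-binding protein also made by injured epithelium, was at 9.09 and 8.97 on the null arrays and at 9.13 and 9.06 on the wild-type arrays. Itgam, the integrin chain CD11b of neutrophils and macrophages, was at 7.57 and 7.06 on the null arrays and at 7.20 and 7.46 on the wild-type arrays. None of these 3 separated the genotypes, and macrophage markers were bright too, with mean levels of 7.79 and 7.20 on the null arrays and 7.47 and 7.56 on the wild-type arrays.

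Of 21 measured ligands and related genes that recruit or sustain neutrophils, 0 passed the adjusted threshold by limma, against 0.00451% of all genes. At unadjusted p under 0.05 limma gave 0 of the 21, against 6.91% of all genes. Of the 21, 12 were higher and 9 lower, with a median of 0.04. Csf3, the ligand of Csf3r, was at 3.64 and 3.78 on the null arrays and at 3.50 and 3.25 on the wild-type arrays (0.33 ± 0.14, SE), dim but without overlap. Of the ligands of Cxcr2, Cxcl1 was at 3.98 and 4.57 on the null arrays and at 4.23 and 4.24 on the wild-type arrays, Cxcl2 at 3.43 and 3.29 on the null arrays and at 3.58 and 2.46 on the wild-type arrays, and Cxcl5 at 3.41 and 3.87 on the null arrays and at 3.67 and 3.31 on the wild-type arrays. Each of these 3 overlapped between genotypes. Cxcl3, a further ligand of the family, was dimmer still and lower on both null arrays, at 1.73 and 1.52, against 2.27 and 1.90 on the wild-type arrays.

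Adhesion genes of vessel walls and of leukocyte entry had 4 of 11 higher and 7 lower, with a median of -0.03. By limma 0 of the 11 passed the threshold, against 0.00451% of all genes, and 0 had an unadjusted p under 0.05, against 6.91%. Icam2 was at 4.82 and 4.37 on the null arrays and at 4.21 and 4.22 on the wild-type arrays, and F11r, a junction protein, at 9.11 and 8.59 on the null arrays and at 9.18 and 9.38 on the wild-type arrays. Of 7 receptors named for calprotectin, 3 were higher and 4 lower, with a median of -0.22. By limma 0 of the 7 passed the threshold, beside the same 0.00451% of all genes. Ager, the receptor RAGE, was at 4.66 and 4.51 on the null arrays and at 3.92 and 4.09 on the wild-type arrays (0.59 ± 0.12, SE; limma unadjusted p = 0.0074, adjusted p = 0.721). Cd14, a co-receptor of Tlr4 on monocytes, was lower on both null arrays, with a mean of 7.03 ± 0.03 in the null and 7.46 ± 0.06 in wild type (SD, n = 2 each; difference -0.44 ± 0.10, SE; limma unadjusted p = 0.0107, adjusted p = 0.721), while Tlr4 itself overlapped (0.11 ± 0.18).

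Around Il1b, 8 of 16 measured genes of its processing and receptors were higher and 8 lower, with a median of 0.0041. By limma 0 of the 16 passed the threshold, against 0.00451% of all genes. Il1rn, the antagonist that blocks the Il1 receptor, was at 5.85 and 5.84 on the null arrays and at 6.27 and 6.24 on the wild-type arrays. Both null arrays were lower than both wild-type arrays, with gaps within a genotype of at most 0.03. The difference was -0.41 ± 0.10 (SE), with a limma unadjusted p of 0.0120 and an adjusted p of 0.721. Il1r1, the receptor itself, overlapped, at 6.85 and 6.11 on the null arrays and at 6.62 and 6.52 on the wild-type arrays.

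Of the other cell types, some genes picked by the rule of smallest p had groups without overlap, none past the adjusted threshold. That rule favours such genes, and 35.8% of all genes did not overlap in either direction. Nkg7, a granule protein of NK and cytotoxic T cells, was at 5.05 and 4.95 on the null arrays and at 4.57 and 4.45 on the wild-type arrays. Siglecf, a surface lectin of eosinophils, was at 5.08 and 4.74 on the null arrays and at 4.26 and 4.37 on the wild-type arrays. Krt19, a keratin of duct cells, was at 7.59 and 7.39 on the null arrays and at 8.11 and 8.05 on the wild-type arrays. Both null arrays were higher for the first pair of genes and lower for Krt19.

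Markers of the remaining cell types placed these values in the tissue. Relative to the wild-type mean, Ifrd1 null 1 and Ifrd1 null 2 had medians of 0.21 and -0.39 for macrophage markers, 0.16 and 0.12 for mast cell, basophil and eosinophil markers, 0.65 and -0.32 for adipocyte markers, -0.27 and 0.21 for acinar markers and 0.05 and -0.49 for fibroblast markers. Erythroid and platelet markers, of which 6 of 14 were measured, had -0.06 and -0.13, duct and intestinal markers -0.33 and -0.39 and endothelial markers -0.16 and -0.27. The 10 neutrophil genes, at 0.17 and -0.03, and the 43 others, at 0.23 and -0.03, lay between these. Over both arrays, the median difference was -0.04 for macrophage, 0.14 for B and plasma cell and 0.16 for mast cell, basophil and eosinophil markers. It was -0.16 for erythroid and platelet, -0.04 for adipocyte and 0.0025 for acinar markers. For duct and intestinal markers it was -0.36, for fibroblast markers -0.19 and for endothelial markers -0.19. Of the 11 endothelial markers 0 were higher in the null, beside 47.2% of all genes. By limma 0 genes of these lists passed the threshold, against 0.00451% of all genes.

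**Figure D5:**
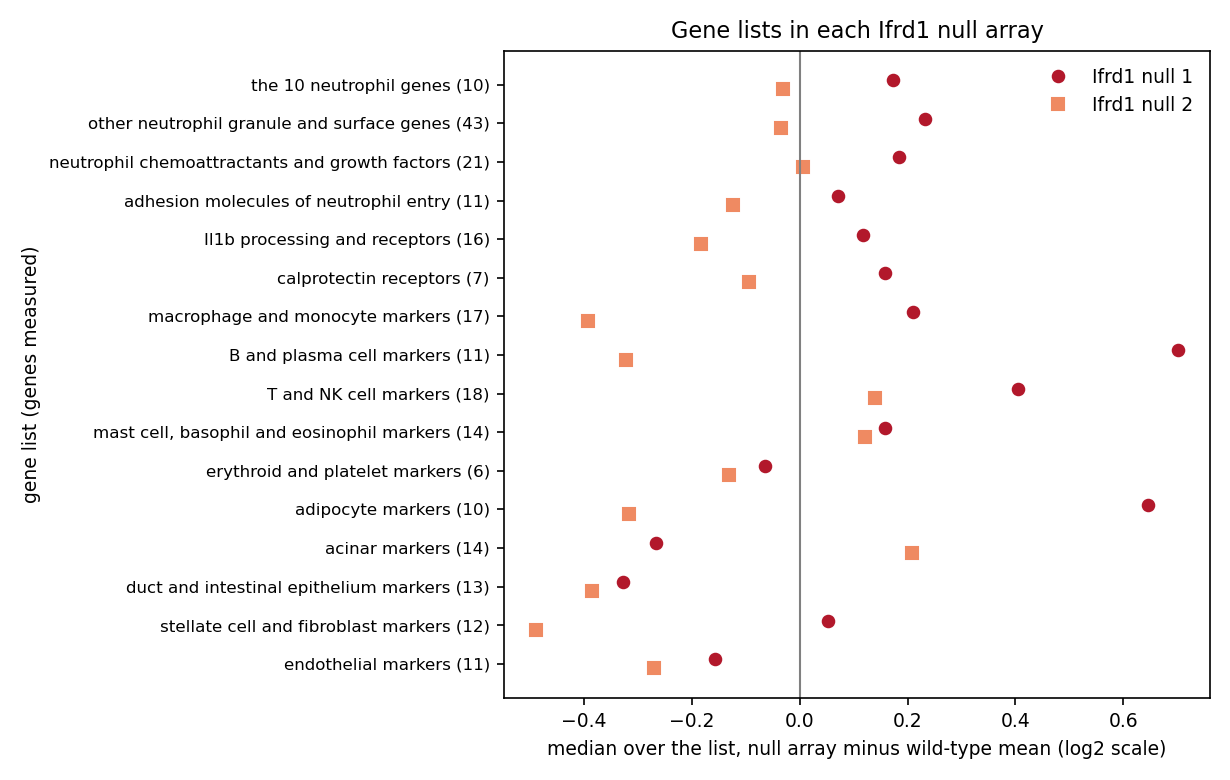
Median over each gene list of the level on Ifrd1 null 1 (circles) or Ifrd1 null 2 (squares) minus the wild-type mean (log2 scale), with the number of genes measured in brackets. The 10 neutrophil genes lie at 0.17 and -0.03, and the widest gap between the null arrays belongs to B and plasma cell markers, at 0.70 and -0.32.

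The genes whose pattern over the 4 arrays was nearest to the mean pattern of the 10, among 11088 genes above the median level, were Mcoln2, Defa34, Rilpl2, Sh3bp1 and Cobl. Likeness was the Euclidean distance between the 4 values of a gene, each centred on its own mean, and it ran from 0.0184 for Mcoln2 to 0.0376 for Cobl. The mean pattern was 0.25 and -0.05 on the null arrays and 0.02 and -0.22 on the wild-type arrays, and 25 genes lay within 0.1 of it. With 4 arrays such a list is a description of these samples.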

How the data were processed

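Per the labels' protocols, total RNA was extracted with Trizol, carried a biotin label and was measured on Affymetrix arrays. The values are the authors' deposited values per row and array, read here as log2 levels because they lay between 0.218 and 13.9. The log base, background correction, probe summary and normalization are not given in the sources used here. Of 41345 rows, 23521 carried 1 gene symbol in the platform annotation, and for the 1082 genes with several rows the brightest row by mean was taken, which left 22180 genes. Dim rows were kept, without detection calls. Array medians over genes were 4.70 and 4.67 in the null and 4.68 and 4.66 in wild type.

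Groups were compared over all genes with limma 3.58.1 (lmFit, eBayes, no covariates) in R 4.3.3, two-sided, with Benjamini-Hochberg adjustment over all genes and a threshold of 0.05. The number of arrays limits the precision. Named genes were the 10 genes, Ifrd1, partner genes fixed by name, the brightest gene and the 2 of smallest p of each list, and the 5 nearest in pattern, of which the text gives those that bear on each comparison. The 10 genes and the lists were chosen with earlier results of these data known, and the olfactory receptor guide, Retnla, Retn, Retnlb, Glycam1, Ly6g, Mpo, Elane, Lcn2, Prtn3, Ctsg, Itgam and Cd79a were chosen after values were seen. So were C5ar1, Ceacam10, Stfa3, Cd177 and Il1r2. Chil3 came from the rule of smallest p but was set beside Retnlg after its values were seen. Cd14, Pf4 and Ppbp stand on 2 lists each. Promoter windows were the first 250 bases of a RefSeq promoter table (GRCm38.p6), which held all 10 genes.

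Alternatives were quantile normalization, cyclic loess, median centring, trend and robust eBayes, the replicate number as a block, a filter on dim genes, the mean of a gene's rows, leaving out X and Y genes and leaving out each array.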

Additional observations from a re-analysis of the deposited data

How the results depend on the processing

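Under the alternatives that kept all 4 arrays, 0 of the 10 genes passed adjusted p under 0.05 in limma. With 22180 genes tested, the count at unadjusted p under 0.05 then ran from 1148 (quantile normalization) to 1511 (mean of a gene's rows), against 1532 as reported. The filter on dim genes tested 11090 genes, of which 884 were under 0.05. Retnlg kept its sign in all 12 alternatives (0.76 to 1.46), and Ngp, Ltf and Mmp8 kept theirs in the 11 that gave them a value. The count of all genes past the threshold was 4 with cyclic loess, 5 with arrays centred on their medians, 5 with trend and robust eBayes, 0 among genes above the median level (884 at unadjusted p under 0.05) and 0 without X and Y genes (1456), against 1 as reported, and the cause was not tested beyond the genes left out. Leaving out each array in turn gave 0 to 0 such genes (1301 to 2232 at unadjusted p under 0.05). The replicate number as a block gave 4 genes past the threshold and changed no adjusted call among the 10, but by limma Ngp then had an unadjusted p of 0.039, so that 2 of the 10 were under 0.05, Ngp and Retnlg, where 1218 of all genes were. Over genes, the deviations of same-numbered arrays correlated at -0.04, and no label says that a number marks a shared litter or day, so the numbers were not taken as pairs.

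Csf3r turned to -0.014 with arrays centred on their medians, and its range without an array was -0.00295 to 0.00542. Leaving out an array gave -0.12 to 0.26 for S100a8, -0.076 to 0.71 for S100a9, -0.16 to 0.60 for Cxcr2, -0.24 to 0.046 for Camp and -0.46 to 0.15 for Il1b, and signs turned within each. The median of the 10 was 0.08 with quantile normalization, 0.08 with cyclic loess and -0.03 to 0.17 without an array, and the number of genes higher was 4 to 7. The filter on dim genes left Csf3r and Retnlg, so it gave no median over the 10. Whether the dim rows rise above background cannot be read from the deposited values.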
